A study of Mus musculus with 12 samples.

Results

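The 10 genes that encode shelterin and the CST complex were read in 12 mouse liver libraries, out of 24421 genes listed in each. Shelterin was represented by 7 genes (Terf1, Terf2, Terf2ip, Tinf2, Acd, Pot1a and Pot1b) and CST by 3 (Ctc1, Stn1 and Ten1). The genes were chosen by name, and Stn1 was found under its older symbol, Obfc1. All 10 were listed, and all 10 passed the filter on low counts in each of the 6 comparisons made.

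Poly(A) RNA had been sequenced from 6 liver tumors and from 6 non-tumoral livers of mice on a standard diet that were over 18 months old. The p21Tert group gave 4 tumors, called T-HCC662, T-HCC663 and T-HCC941 and T-HCA992, and 4 livers, labelled p_961, p_663, p_941 and NT_992. The p21TertCi group gave the tumors TCi-HCC981 and TCi-HCA984 and 2 livers, L981_CI and L984_CI. The number in a name is that of the mouse, except that the liver p_961 was taken as coming from the mouse of T-HCC662, by elimination and from the header of its counts. In p21Tert mice, 1 allele of Cdkn1a (the gene of p21, an inhibitor of cyclin-dependent kinases that is induced by p53) also drives the telomerase catalytic subunit, Tert. In p21TertCi mice, the same allele carries a Tert mutant without catalytic activity. An mCherry reporter and the endogenous Tert gene are present in both genotypes, so no group lacks a transgene and neither tissue has wild-type controls here. Each tumor is a single lesion of 1 mouse. HCC and HCA in a name stand for hepatocellular carcinoma and adenoma, but the histological diagnosis in the study for the mouse of T-HCC663 is adenoma, so the names are used here as names and tumors were not grouped by class.

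Shelterin is the protein complex that coats the telomere repeats and keeps chromosome ends from being read as DNA breaks. TRF1 and TRF2 (Terf1 and Terf2) bind the double-stranded repeat, RAP1 (Terf2ip) rides on TRF2, TIN2 (Tinf2) joins the parts, and TPP1 (Acd) brings in POT1, which covers the single-stranded 3′ overhang and, with TPP1, regulates telomerase. Rodents carry a pair of Pot1 genes, and the mouse proteins are known to divide the work, POT1a mainly holding back the ATR damage signal and POT1b controlling the length of the overhang. CST (CTC1, STN1 and TEN1) binds single-stranded DNA after telomerase has acted and brings DNA polymerase alpha-primase to fill in the complementary strand.

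Pot1a and Pot1b were the more alike of the 2 paralog pairs compared. A read can belong to both only where the sequences match over its whole length. The longest run of identical aligned coding bases, 41, is shorter than the reads that the study describes. Untranslated bases of the pair were not aligned. The longest open reading frames of Pot1a and Pot1b in the GENCODE transcripts have 1923 bases each, of which 1514 of 1920 aligned bases are identical (78.9%). The longest run of identical bases is 41, and the stretch around it is shown, with the 21 of 131 bases that differ in capitals (coding bases 424 to 554 in both genes, 5′ to 3′ on the transcript).
Pot1a: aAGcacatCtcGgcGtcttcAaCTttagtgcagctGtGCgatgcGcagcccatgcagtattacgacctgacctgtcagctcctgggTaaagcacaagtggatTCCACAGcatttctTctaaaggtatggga
Pot1b: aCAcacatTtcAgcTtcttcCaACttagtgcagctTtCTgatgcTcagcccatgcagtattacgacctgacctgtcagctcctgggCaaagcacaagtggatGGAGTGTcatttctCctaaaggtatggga
Differing bases stand on both sides of the shared run. Terf1 and Terf2 are less alike, with 64.6% of 1220 aligned coding bases identical and no identical run over 17 bases.

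The members lie on 7 chromosomes of GRCm38 (the mm10 build). Acd (chr8:105695860-105701102, minus strand), Terf2 (chr8:107069400-107096547, minus strand) and Terf2ip (chr8:112011398-112020528, plus strand) share chromosome 8, and Ctc1 (chr11:69015911-69036473, plus strand) and Ten1 (chr11:116198855-116215318, plus strand) share chromosome 11. Terf1 is at chr1:15805646-15844052 (plus strand), Pot1a at chr6:25743737-25809246 (minus strand), Tinf2 at chr14:55674689-55681820 (minus strand), Pot1b at chr17:55651951-55712628 (minus strand) and Stn1 at chr19:47501033-47537507 (minus strand). Several overlap a gene on the other strand. The exons of Gmpr2 cover 1540 of the 4938 exonic bases of Tinf2 (31.2%), those of Carmil2 cover 1208 of 3625 in Acd (33.3%), those of Gm6793 cover 108 in Terf2ip, and those of Gm19557 cover 124 in Stn1. The library kit is not stated to mark the strand, so reads in these bases cannot be assigned to either gene. In a minimap2 search of the members' transcripts against all others, Tinf2 also matched 13 genes elsewhere, Terf1 among them, over at least 100 bases at 95% identity or more. The other searches gave no such match, not even that of Terf1 back to Tinf2, so this search does not list every shared stretch.

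RefSeq promoter windows of 300 bases (250 before the transcript start and 50 after it, GRCm38.p6) were at hand for 9 of the members, all but Terf1. All motifs were read on both strands. The GC box (GGGCGG) was present in 7 of the 9, in Terf2, Terf2ip, Pot1a, Pot1b, Ctc1, Stn1 and Ten1, against 35.7% of 32851 windows of all genes. The E-box (CACGTG) was present in Ctc1 and Ten1, against 7.2% of all windows. ETS motifs (CCGGAAG, 8.9% of all windows) and CHR motifs (TTTGAA, 17.9% of all windows) were each present in 3 of the 9. The E2F motif (TTTGGCGC), the TCF motif (CTTTGAT) and the AP-1 motif (TGACTCA) were found in none of the 9 windows, against 0.5%, 3.7% and 5.2% of all windows. The CHR and TCF motifs share the letters TTTGA. These matches describe letters in the windows and not bound sites.

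The libraries held from 14571716 to 26170661 reads counted on genes. The symbol Tert had 10.7 to 17.5 CPM (reads per 1000000 of the TMM-scaled library) in p21Tert livers, 11.1 and 12.9 in p21TertCi livers, 4.62 to 26.1 in p21Tert tumors, and 15.7 and 17.1 in p21TertCi tumors, and gene counts do not tell endogenous from inserted Tert. Cdkn1a had from 1.64 to 52.2 CPM in the livers and from 32.4 to 79.6 CPM in the tumors. None of the 6 hepatocyte markers was at 0 in any group, and their summed level ranged from 29190 to 52590 CPM in livers and from 17320 (T-HCC663) to 94910 CPM in tumors. Of the markers of other cell types, Pecam1 of endothelium was the only 1 called in a comparison of tumors with livers, with a log2 fold change of 1.59 over all tumors (adjusted p = 0.0179 in edgeR's quasi-likelihood test). Over all tumors, 10.7% of all genes tested were called. The other lists gave ranges that overlapped between tissues, in summed CPM from 50.4 to 134.6 in livers and from 17.7 to 1063 in tumors for cholangiocytes, from 43.1 to 113.6 and from 48.9 to 212 for endothelium, and from 97.0 to 874 and from 60.2 to 523 for macrophages. The remaining ranges were 0.793 to 9.12 and 2.13 to 25.9 for T cells, 0.694 to 40.5 and 1.49 to 17.6 for B cells, 42.3 to 227 and 26.6 to 383 for stellate cells and fibroblasts, and 265 to 797 and 199 to 1622 for erythroid cells. Within some lists the markers moved in both directions. Over all tumors, log2 fold changes ran from -1.07 (Krt7) to 2.09 (Spp1) in the cholangiocyte list. They ran from -2.06 (Marco) to 1.08 (Cd68) in the macrophage list and from -1.44 (Cps1) to 1.10 (Alb) in the hepatocyte list. A sum therefore does not give the direction of each marker. In bulk tissue, fewer cells that express a gene and less RNA of it per cell cannot be told apart.

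In the livers, the members were expressed at low and unequal levels. Scaled to the length of the merged exons, the means over the 6 livers were 4.88 ± 0.637 CPM per kb (SD, n = 6) for Acd, 4.34 ± 0.783 for Tinf2, 4.28 ± 0.775 for Terf2ip and 3.51 ± 0.440 for Terf2. Terf1 followed with 2.48 ± 0.636 CPM per kb. Next came Ctc1 with 1.56 ± 0.341, Pot1b with 1.49 ± 0.628, Ten1 with 1.03 ± 0.241, Stn1 with 0.846 ± 0.323 and Pot1a with 0.667 ± 0.152 CPM per kb. Terf2 exceeded Terf1, and Terf1 exceeded Ctc1, in all 6 livers, while the order of Tinf2 and Terf2ip, and that of Ctc1 and Pot1b, held in only 3 of the 6. The other neighbors in this order kept it in 4 or 5 of the 6 livers. The order, here and in the tumors, depends on the length used. Coding bases were 483 of the 2728 merged exonic bases in Ten1 and 3636 of 6797 in Ctc1. An order per coding length is not given here. The exonic bases that Acd and Tinf2 share with other genes add doubt to their values.

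In the tumors, Tinf2 had the highest mean, 4.33 CPM per kb, but with an SD of 2.87, and it exceeded Terf2ip, the next gene, in 2 of the 6 tumors. Ten1 had rank 5 of the 10 with 3.14 ± 2.24 CPM per kb (SD, n = 6), against rank 8 in the livers. Pot1a was the lowest in both tissues, with 0.553 ± 0.168 CPM per kb in tumors. Summed over the complex, shelterin genes gave 19.1 to 23.7 CPM per kb in p21Tert livers and 18.1 to 29.0 in p21Tert tumors, which overlap, and CST genes gave 2.64 to 3.75 in p21Tert livers and 6.54 to 9.05 in p21Tert tumors, which do not. Ten1 made up 31.9% to 71.0% of the CST sum in p21Tert tumors and 24.4% to 38.8% in p21Tert livers. Ctc1, the largest other part, overlapped between these groups, so the gap in the sums is not a trait of all CST genes. In p21TertCi mice the CST sum was 3.31 and 4.03 CPM per kb in livers and 3.49 and 4.24 in tumors.

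**Figure D1:**
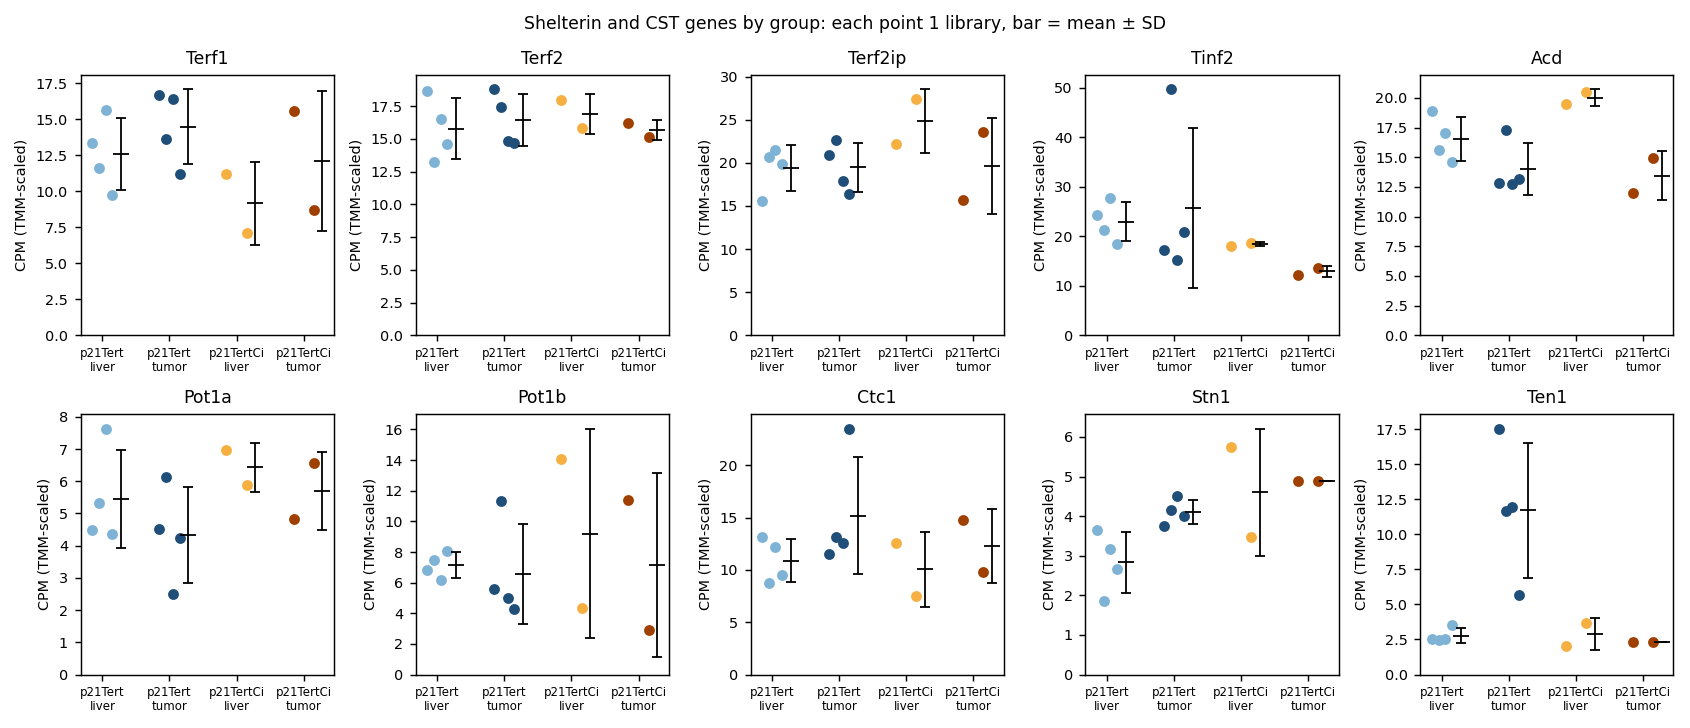
Level of each of the 10 genes (CPM after TMM scaling, linear axes from 0) in the 4 genotype-by-tissue groups, with 1 point per library and the mean ± SD of the group beside it. Ten1 lies between 5.69 and 17.5 CPM in the 4 p21Tert tumors and at or under 3.67 CPM in the other 8 libraries, and Tinf2 in T-HCC663 stands at 49.6 CPM.

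Whether tumors differed from livers in the capping genes was tested first over both genotypes, with 6 tumors against 6 livers. Ten1, the smallest CST subunit, was the only member called. Its level rose, with a log2 fold change of 1.62 (95% confidence interval 0.60 to 2.64, SE 0.47, edgeR adjusted p = 0.0439), so 1 of 10 members was called, where 10.7% of the 13822 genes tested were called. The other 9 members had log2 fold changes from -0.35 (Acd) to 0.43 (Ctc1), with a median of 0.01 beside a median of 0.011 over all genes tested, and adjusted p-values of 0.145 or more. The Ten1 call in this pooled comparison depended on the fit. With the mouse as a block in 6 pairs the log2 fold change of Ten1 was 1.28 (adjusted p = 0.118), and with the 5 pairs whose titles share a number it was 0.95 (adjusted p = 0.227). Ten1 was called in 2 of 12 fits that each left out 1 library, those without TCi-HCC981 or TCi-HCA984, while the other 10 gave adjusted p-values up to 0.0940.

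The genotypes were then taken apart in 1 model of 12 libraries and 4 groups. In p21Tert mice, 4 tumors against 4 livers, Ten1 was again the only member called, 1 of 10, where 6.49% of 15182 genes were called. The reads counted on Ten1 were 35, 38, 33 and 67 in the livers p_961, p_663, p_941 and NT_992 of this genotype, and 392, 270, 225 and 159 in the tumor lesions T-HCC662, T-HCC663 and T-HCC941 and in T-HCA992. In CPM, the livers had 2.50, 2.43, 2.55 and 3.56, and the tumors had 17.5, 11.7, 11.9 and 5.69. Every p21Tert tumor exceeded every p21Tert liver, with T-HCA992 the lowest of the tumors and its own liver the highest of the livers. The livers had a mean of 2.76 ± 0.537 CPM and the tumors of 11.7 ± 4.83 CPM (SD, n = 4 each), a log2 fold change of 2.08 (SE 0.36, 95% confidence interval 1.28 to 2.87, adjusted p = 0.0100 in edgeR). Ten1 was called in each of the 12 fits that left out 1 library (adjusted p from 0.00686 to 0.0457) and with the mouse as a block in 6 pairs (2.00, adjusted p = 0.0276). With 5 pairs, it was not called (1.72, adjusted p = 0.0869).

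In p21TertCi mice, Ten1 had 49 and 74 reads in the livers L981_CI and L984_CI (2.07 and 3.67 CPM) and 46 and 40 reads in the tumors TCi-HCC981 and TCi-HCA984 (2.34 and 2.30 CPM). These tumors lie within the range of their livers. The log2 fold change was -0.30 (SE 0.50, 95% confidence interval -1.40 to 0.79, adjusted p = 0.869 in edgeR). Here 0 of 10 members were called and 0% of the 15182 genes tested, although 1618 genes had an unadjusted p under 0.05 and DESeq2 called 375 genes, no member among them.

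The difference between the genotypes was tested as an interaction of genotype and tissue, since a call in the first genotype and none in the second does not show a difference. For Ten1 the interaction was a log2 difference of 2.38 (SE 0.62, 95% confidence interval 1.02 to 3.74, unadjusted p = 0.00263, adjusted p = 1.00 in edgeR). It did not pass the correction over all genes, and neither did any other member or gene (0%, with 556 genes at an unadjusted p under 0.05 and 10 called by DESeq2, which gave no adjusted p for Ten1). Within a mouse, on the scale of log2(CPM + 0.5), Ten1 in the tumor minus Ten1 in the liver was 2.59 for T-HCC662, 2.05 for T-HCC663, 2.03 for T-HCC941 and 0.61 for T-HCA992, and it was 0.15 for TCi-HCC981 and -0.57 for TCi-HCA984. The 4 p21Tert mice lie above both p21TertCi mice, with that of T-HCA992 the nearest to them. The study reports Ctnnb1 mutations in T-HCC662 and T-HCC663, an Egfr mutation in T-HCC941 and an Hras mutation in TCi-HCC981. It reports no Wnt or Ras pathway mutation in T-HCA992 and TCi-HCA984. No mutated driver is shared between the genotypes, so genotype and driver cannot be told apart here.

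Direct comparisons within a tissue give the level of each member between genotypes. In livers, no member was called between p21Tert and p21TertCi mice (0 of 10, 0% of 15182 genes, 756 at an unadjusted p under 0.05, 42 called by DESeq2), and Ten1 differed by -0.05 on the log2 scale (95% confidence interval -0.998 to 0.896). In tumors, Ten1 was higher in the p21Tert group by a log2 difference of 2.33 (SE 0.48, unadjusted p = 0.00048), but its adjusted p was 0.213 in edgeR. Again 0 of 10 members and 0% of genes were called by edgeR, with 1752 genes at an unadjusted p under 0.05, whereas DESeq2 called 372 genes, Ten1 being the only member (adjusted p = 0.000316). Tinf2 was the other member with an unadjusted p under 0.05 between tumors, with a log2 difference of 1.00 (adjusted p = 0.422 in edgeR).

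**Figure D2:**
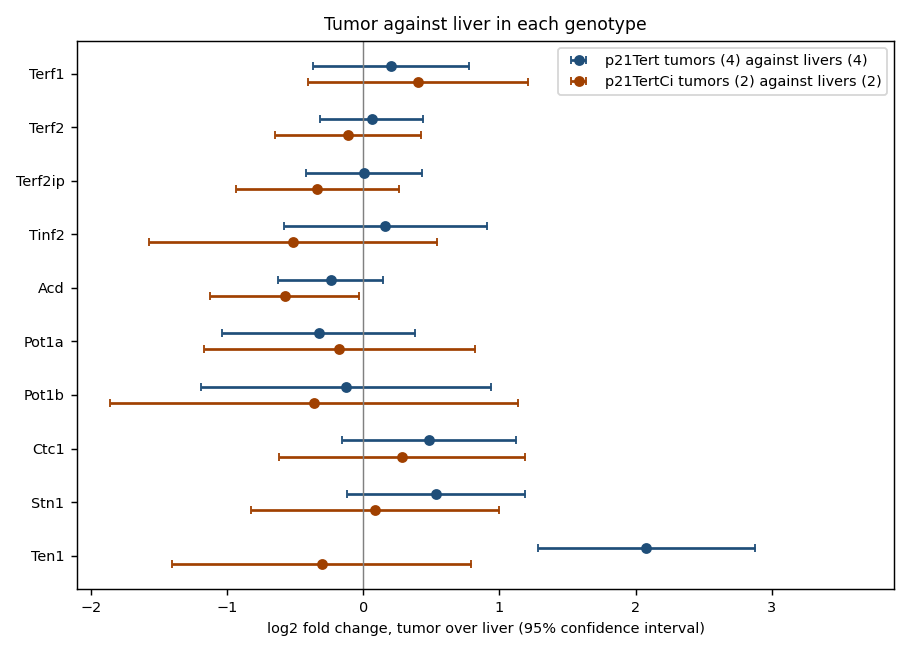
Log2 fold change of tumor over liver for each member, with its 95% confidence interval from edgeR, in p21Tert mice (4 tumors, 4 livers) and p21TertCi mice (2 tumors, 2 livers). The interval of Ten1 in p21Tert mice, 1.28 to 2.87, lies above 0, and those of the other members in p21Tert mice include 0.

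The rest of CST had smaller differences in p21Tert tumors. Ctc1, the large scaffold subunit, had 13.1, 8.78, 12.2 and 9.52 CPM in the p21Tert livers p_961, p_663, p_941 and NT_992, and 11.5, 13.2, 12.6 and 23.5 CPM in the tumor lesions T-HCC662, T-HCC663 and T-HCC941 and in T-HCA992. Only T-HCA992 lies clear of the livers, and the log2 fold change was 0.48 (edgeR adjusted p = 0.359, SE 0.29). Stn1, which contacts DNA polymerase alpha-primase, had 1.86 to 3.64 CPM in the p21Tert livers and 3.76 to 4.51 CPM in the p21Tert tumors. These groups do not overlap, but the log2 fold change of 0.54 (SE 0.30) had an adjusted p of 0.311 in edgeR, and the p21TertCi livers reached 5.74 CPM. Per length of merged exons, Ten1 was 0.474 to 0.933 times Ctc1 in p21Tert livers and 0.603 to 3.79 times Ctc1 in p21Tert tumors. It was 0.41 and 1.21 times Ctc1 in the p21TertCi livers L981_CI and L984_CI. Ten1 has 2728 merged exonic and 483 coding bases, and Ctc1 has 6797 and 3636. These ratios, and the shares that follow, therefore depend on the length used and would be higher per coding length. The share of Ten1 in the CST sum was 24.4% to 38.8% in p21Tert livers and 31.9% to 71.0% in p21Tert tumors, 18.8% and 40.6% in the p21TertCi livers, and 20.3% and 24.2% in the p21TertCi tumors. In T-HCA992 that share, 31.9%, was the lowest of its group. It was under those of its own liver NT_992 (38.8%), of the liver p_663 (33.8%) and of L984_CI. The Ctc1 level of T-HCA992 was the highest of all libraries.

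None of the 7 shelterin genes was called in any of the 6 comparisons, by edgeR or by DESeq2. Of all genes tested, edgeR called 10.7% over both genotypes, 6.49% in p21Tert mice and 0% in each other comparison. A count of 0 among 7 genes is near these shares. Only Acd and Tinf2 had an unadjusted p under 0.05 in any comparison. Terf1, which binds the double-stranded repeat as a dimer and limits telomere length, exceeded its liver level in the tumor of 6 of 6 mice, by 0.07 to 0.46 on the log2(CPM + 0.5) scale. Its levels overlapped, with 9.73 to 15.7 CPM in p21Tert livers and 11.2 to 16.7 CPM in p21Tert tumors, and the pooled log2 fold change was 0.27 (edgeR adjusted p = 0.473, SE 0.22). Terf2, which protects ends from fusion by folding them into the t-loop, had overlapping levels in the tissues, with 13.3 to 18.6 CPM in the 6 livers and 14.7 to 18.8 CPM in the 6 tumors, with a log2 fold change of 0.01 and a 95% confidence interval from -0.28 to 0.30. Terf2ip, the TRF2 partner RAP1, had 15.6 to 27.5 CPM in livers and 15.7 to 23.6 CPM in tumors, a log2 fold change of -0.11 (95% confidence interval -0.46 to 0.24).

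Acd, which encodes the TPP1 protein that recruits telomerase, was lower in the tumor in 5 of 6 mice. It had 18.9, 15.6, 17.0 and 14.6 CPM in the p21Tert livers p_961, p_663, p_941 and NT_992, and 19.5 and 20.5 CPM in the p21TertCi livers L981_CI and L984_CI. The p21Tert tumor lesions T-HCC662, T-HCC663 and T-HCC941, and T-HCA992, had 12.8, 17.3, 12.7 and 13.2 CPM, and the p21TertCi tumors TCi-HCC981 and TCi-HCA984 had 12.0 and 14.9 CPM. T-HCC663 was the exception to that direction, and T-HCC663 and TCi-HCA984 both exceeded the lowest liver, NT_992. The pooled log2 fold change was -0.35 (SE 0.14, unadjusted p = 0.0314, adjusted p = 0.145 in edgeR), and in p21TertCi mice it was -0.58 (unadjusted p = 0.0406, adjusted p = 0.450 in edgeR). Carmil2, listed in the files under an older symbol and sharing exonic bases with Acd, had 0.941 to 3.24 CPM in livers and 1.03 to 5.40 CPM in tumors, the highest value again in T-HCC663.

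Pot1a and Pot1b, the single-strand binding subunits, overlapped between tissues. Pot1a had 4.36 to 7.63 CPM in livers and 2.49 to 6.55 CPM in tumors, a log2 fold change of -0.26 (95% confidence interval -0.82 to 0.29). Pot1b had 14.1 CPM in the p21TertCi liver L981_CI and 11.4 CPM in TCi-HCC981, and 4.36 CPM in the p21TertCi liver L984_CI and 2.93 CPM in TCi-HCA984, so both tissues of the first mouse were high and both of the second were low. In p21Tert mice it had 6.17 to 8.08 CPM in livers and 5.59, 11.4, 4.98 and 4.30 CPM in the tumor lesions T-HCC662, T-HCC663 and T-HCC941 and in T-HCA992. Its log2 fold change over all mice was -0.20, with a 95% confidence interval from -1.01 to 0.60. Per length of merged exons, Pot1b exceeded Pot1a in 11 of 12 libraries, the exception being TCi-HCA984 with a ratio of 0.736. The mean ratio was 2.302 ± 0.718 (SD, n = 4) in p21Tert livers and 2.512 ± 0.780 (SD, n = 4) in p21Tert tumors, a difference smaller than the spread within either group. With the coding length in place of the merged exons, these means were 1.35 and 1.47, and Pot1b exceeded Pot1a in 8 of 12 libraries.

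Tinf2, whose product TIN2 links TRF1, TRF2 and TPP1, had its highest level in a single tumor. It had 24.4, 21.2, 27.7 and 18.5 CPM in the p21Tert livers p_961, p_663, p_941 and NT_992, and 17.1, 49.6, 15.1 and 20.8 CPM in the tumor lesions T-HCC662, T-HCC663 and T-HCC941 and in T-HCA992. T-HCC663 was far above all other libraries, and the other 3 p21Tert tumors lay within or under the range of the livers. In p21TertCi mice, the livers L981_CI and L984_CI had 18.1 and 18.7 CPM and the tumors 12.1 and 13.6 CPM. Over p21Tert mice the log2 fold change was 0.16 (edgeR adjusted p = 0.816, SE 0.34), and without T-HCC663 it was -0.36, the lowest value of the 12 fits that left out 1 library. In the pooled comparison it was 0.01 with T-HCC663 and -0.42 without it, and neither was called.

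The genes beside Tinf2 on chromosome 14 were high in the same tumor. Of the 5 tested genes on either side (Tm9sf1, Tssk4, Mdp1, Nedd8, Gmpr2, Tgm1, Rabggta, Dhrs1, Nop9 and Cideb, over chr14:55635965-55758458), 10 of 10 were above the mean of the 6 livers in T-HCC663, by 0.47 to 2.01 on the log2(CPM + 1) scale, with a median of 0.86. In the other 5 tumors, from 0 to 6 of the 10 were above the livers, with medians from -0.76 to 0.18. Gmpr2, whose exons overlap Tinf2, had 53.4 CPM in T-HCC663 and 16.5 to 28.8 CPM in the other 11 libraries. Over the 508 tested genes of chromosome 14 the median difference in T-HCC663 was -0.13, so the higher level did not extend over the whole chromosome. The exome data from which the study read copy number in these tumors were not analysed here, so the part of copy number in these levels was not tested.

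**Figure D3:**
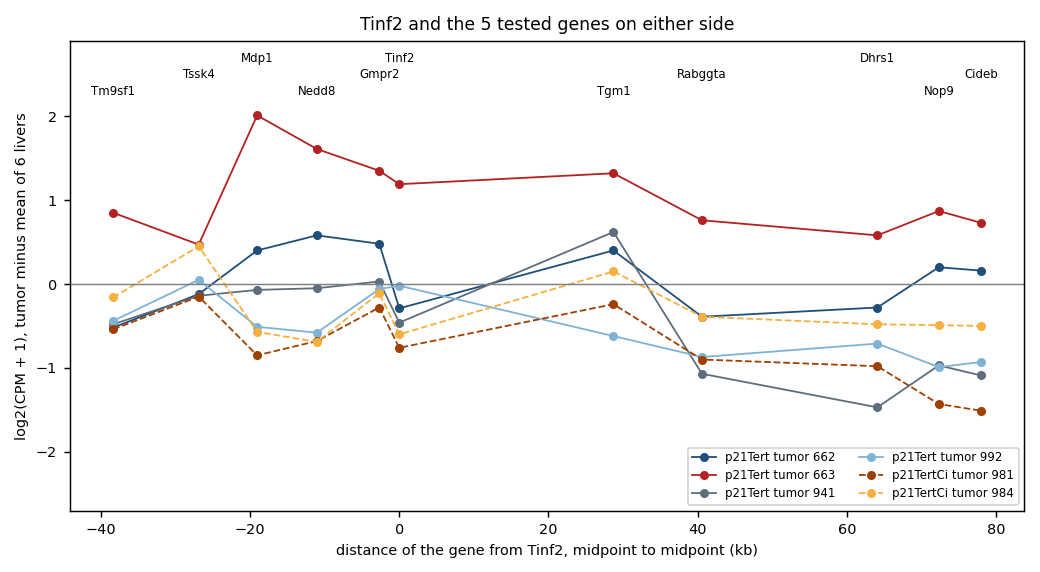
Difference of each tumor from the mean of the 6 livers on the log2(CPM + 1) scale for Tinf2 and the 5 tested genes on either side, placed by their distance from Tinf2 in kb, with 1 line per tumor. In T-HCC663 all 10 neighbors lie between 0.47 and 2.01, and the medians of the other 5 tumors lie between -0.76 and 0.18.

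Ten1 had no such block of neighbors. The 5 tested genes on either side spanned chr11:116105752-116335399. By the measure used for the neighbors of Tinf2, from 2 (TCi-HCC981) to 8 (T-HCA992) of these 10 were above the livers in a tumor. The medians on the log2(CPM + 1) scale ran from -0.33 (TCi-HCC981) to 0.22 (T-HCC662). In p21Tert tumors against livers, 1 of these 10 was called higher (Trim47, named after its values were seen, log2 fold change 1.29, adjusted p = 0.0229 in edgeR) and 0 lower. Of all genes tested, 6.49% were called in that comparison. Cdk3-ps, a pseudogene 684 bases downstream of Ten1 on the same strand, had the largest log2 fold change of the 10, 2.47 with an adjusted p of 0.101. It had 0 to 9 reads per liver, 76, 29, 30 and 21 reads in the p21Tert tumor lesions T-HCC662, T-HCC663 and T-HCC941 and in T-HCA992, and 4 and 1 reads in the p21TertCi tumors TCi-HCC981 and TCi-HCA984.

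The genes with the profile most like that of Ten1 were found by the root mean square difference of log2(CPM + 1), centered on each gene's mean, over the 12 libraries, as a description of likeness. They were Cdc25c, a phosphatase that activates Cdk1 at the entry into mitosis (0.339), 4930404N11Rik (0.354) and Cdk3-ps (0.379), where the SD of Ten1 itself on this scale was 0.919. Cdc25c had 0 to 0.253 CPM in livers, 1.54 to 4.65 CPM in p21Tert tumors, and 0.458 and 0.0575 CPM in the p21TertCi tumors TCi-HCC981 and TCi-HCA984.

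Genes of cell division were also high in the p21Tert tumors. The 18 genes of a proliferation list summed to 68.3 to 90.1 CPM in p21Tert livers and to 280.1, 284, 177 and 325 CPM in the p21Tert tumor lesions T-HCC662, T-HCC663 and T-HCC941 and in T-HCA992. The p21TertCi tumors TCi-HCC981 and TCi-HCA984 had 153 and 64.5 CPM, and their livers 96.8 and 57.8 CPM. Among p21Tert tumors, Ten1 was lowest in T-HCA992, which had the highest proliferation sum, and Ten1 in TCi-HCC981, which had a higher proliferation sum than any liver, lay within the range of the livers. Of the list, 12 of 18 genes were called higher and 0 lower in p21Tert tumors against livers, where 6.49% of all genes tested were called. The median log2 fold change of the list was 2.27, beside 0.035 over all genes tested. Aurka, a mitotic kinase, and Mcm6, a subunit of the replicative helicase, had log2 fold changes of 1.57 (adjusted p = 0.00399 in edgeR) and 2.34 (adjusted p = 0.0106), Plk1 3.49 (adjusted p = 0.0131) and Ccna2 1.604 (adjusted p = 0.0176). Without liver p_961 or p_663, neither Plk1 (highest adjusted p = 0.0551) nor Ccna2 (highest adjusted p = 0.0595) was called. The part of proliferation in the Ten1 levels was not tested.

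Of 13 genes of telomere replication and end processing, 2 were called higher and 0 lower in p21Tert tumors, where 6.49% of all genes tested were called, with a median log2 fold change of 0.21. They were Pif1, a helicase that can remove telomerase from telomere ends, and Slx4, the scaffold of structure-specific nucleases that trims telomeres. Pif1 had 0.16 to 1.14 CPM in the p21Tert livers and 5.41, 6.01, 5.25 and 4.26 CPM in the tumor lesions T-HCC662, T-HCC663 and T-HCC941 and in T-HCA992, a log2 fold change of 2.87 (edgeR adjusted p = 0.0278, SE 0.66). The p21TertCi tumors TCi-HCC981 and TCi-HCA984 had 0.458 and 0.172 CPM of Pif1, and the interaction was 2.47 (edgeR adjusted p = 1.00, SE 1.18). Of the 12 fits that left out 1 library, 4 did not call Pif1 in p21Tert mice, those without p_961, p_663, p_941 or T-HCC941 (highest adjusted p = 0.0884). Slx4 had 3.39 to 7.77 CPM in p21Tert livers and 11.1 to 14.3 CPM in p21Tert tumors (log2 fold change 1.38, adjusted p = 0.0171 in edgeR), and also passed over all tumors (0.99, adjusted p = 0.0303). Both Slx4 calls were lost with the block of 5 pairs (adjusted p = 0.0512 and 0.0571). Slx4 was not called in p21Tert mice without liver p_961 or p_663 (highest adjusted p = 0.0670), nor over all tumors without p_961, p_663, p_941, T-HCC941 or T-HCA992 (highest adjusted p = 0.0714).

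**Figure D4:**
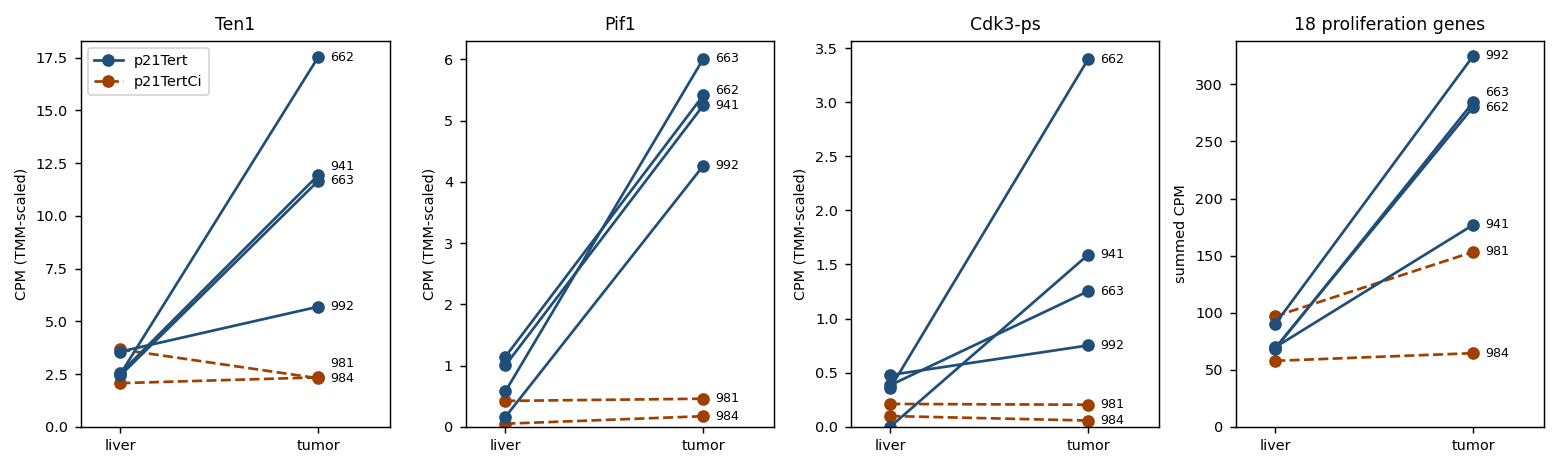
Level in the liver and in the tumor of each mouse, joined by a line, for Ten1, Pif1 and Cdk3-ps (CPM after TMM scaling) and for the sum over 18 proliferation genes. In the 4 p21Tert mice (solid lines) all 4 measures are higher in the tumor, and in the 2 p21TertCi mice (dashed lines) Ten1 stays between 2.07 and 3.67 CPM. In both p21TertCi mice Pif1 and the proliferation sum are also higher in the tumor, and Cdk3-ps is not.

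No gene was called in p21Tert tumors against livers, or in all tumors against livers, in the lists of shelterin partners and telomeric damage signalling (16 of 17 genes listed and tested, median log2 fold change 0.22 in p21Tert mice), of CST partners (7 genes of polymerase alpha-primase and RPA, median 0.07), of telomerase (11 genes, median -0.06) or of telomeric chromatin (8 genes, median -0.01). Of all genes tested, 6.49% were called in p21Tert mice and 10.7% over both genotypes. Among the CST partners, the log2 fold changes in p21Tert mice ranged from -0.39 (Pola2) to 1.05 (Prim1, adjusted p = 0.188 in edgeR). In the telomerase list, Dkc1, the pseudouridine synthase of the telomerase particle, had -0.02, and the largest value was 0.69 for Gar1, a further protein of that particle (adjusted p = 0.128 in edgeR). In p21TertCi mice no gene of these lists was called, where 0% of all genes tested were called.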

How the data were processed

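Poly(A) RNA of 12 libraries (4 p21Tert livers, 4 p21Tert tumors, 2 p21TertCi livers, 2 p21TertCi tumors) was sequenced with paired-end reads. The authors aligned quality-filtered reads with Subread to mm10 with an mCherry sequence added, and deposited whole-number read counts per gene from featureCounts 1.6.4, without normalization. The annotation release, strand setting and treatment of multiply aligned reads are not given in the sources used here, and the sequencing run of each library, which the authors corrected for, could not be modelled.

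Counts were tested with edgeR 4.0.16 in R 4.3.3 (TMM, filterByExpr, quasi-likelihood F test, Benjamini-Hochberg over all genes tested, threshold 0.05). The SE is the log2 fold change divided by the square root of F. CPM is the count per 1000000 of the TMM-scaled library. Tumors against livers were fitted with 2 groups, all other comparisons in 1 model of 4 groups. Alternatives were DESeq2 1.42.0, RLE size factors, no filter, a replicate block, only the libraries compared, and each library left out. Same-numbered tumor and liver come from 1 mouse by their titles. The deviations of a tumor and its own liver from their group means correlated at 0.176 for T-HCC662, 0.048 for T-HCC663, 0.04 for T-HCC941, 0.424 for T-HCA992, and 0.532 in p21TertCi mice, where 2 libraries per group make both mice give 1 value, and unmatched tumor and liver had a median of -0.065. T-HCC663 and T-HCC941 each correlated best with the liver of another mouse. Scripts were tested on simulated counts. Positions are from GENCODE M21 (GRCm38). With 2 to 4 mice a group, the main p-values rest on the spread between libraries within groups, pooled over the groups. The main fits took the tumor and liver of 1 mouse as separate libraries, and only the replicate block used the pairing.

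The members, comparisons and gene lists were chosen with earlier results of these data known. Named were all members, Tert, Cdkn1a, Pif1, up to 4 called genes per list by p, and the neighbors and 3 nearest profiles of a called member. The neighbors of Tinf2 and the genes that overlap members were added after values were seen. Values of 1 gene near a member are not reported here.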

Additional observations from a re-analysis of the deposited data

Results flagged for a closer look

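Each member was checked for a library that stood apart from its group by Dixon's test, in the 4 p21Tert livers, the 4 p21Tert tumors, all 6 livers and all 6 tumors, 40 groups of values in all, of which chance alone is expected to flag about 1 in 20. Tinf2 in T-HCC663 (49.6 CPM) stood apart both among the p21Tert tumors, where the next was 20.8 CPM, and among all 6 tumors. Acd in the same tumor (17.3 CPM) stood apart among the p21Tert tumors, the next being 13.2 CPM. Ctc1 in T-HCA992 (23.5 CPM) stood apart among the p21Tert tumors, where the next was 13.2 CPM, and among all 6 tumors, where the next was 14.8 CPM. Ten1 in the p21Tert liver NT_992 (3.56 CPM) stood apart among the p21Tert livers, the next being 2.55 CPM. No member moved one way in all p21Tert mice and the other way in all p21TertCi mice, and none had an adjusted p under 0.05 for the interaction.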

How the results depend on the processing

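The rise of Ten1 in p21Tert tumors was kept with DESeq2, RLE size factors, no filter on low counts and only the libraries compared, with 6 mouse pairs as a replicate block, and without any 1 library. With the replicate block over 5 labelled pairs, 0 members were called there. Over all tumors, 0 members were called under either replicate block, and 0 to 1 when 1 library was left out. Between tumors of the genotypes, DESeq2 called 1 member. For the members, 271 of 280 results under the other settings and 664 of 720 with a library left out kept their direction and their side of the threshold. All reversals were of values that had not been called. Tinf2 turned to -0.17 over all tumors and -0.0023 in p21Tert mice with the block of 6 pairs, and to -0.10 over all tumors with 5 pairs. Terf2ip turned to -0.14 in p21Tert mice with 5 pairs and to 0.0056 between tumors with no filter. Per coding length, the mean Pot1b to Pot1a ratio was 1.345 in p21Tert livers and 1.468 in p21Tert tumors. The cause of these changes was not tested.

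The following ranges of log2 values over fits without 1 library crossed 0. Over all tumors they were -0.0404 to 0.0555 for Terf2, -0.42 to 0.13 for Tinf2 and -0.42 to 0.0473 for Pot1b. In p21Tert mice they were -0.012 to 0.15 for Terf2, -0.0866 to 0.0804 for Terf2ip, -0.36 to 0.35 for Tinf2 and -0.52 to 0.0318 for Pot1b. In p21TertCi mice they were -0.0777 to 0.76 for Terf1, -0.42 to 0.0276 for Pot1a, -1.65 to 0.71 for Pot1b, -0.0412 to 0.70 for Ctc1, -0.23 to 0.49 for Stn1, -0.66 to 0.16 for Ten1 and -0.46 to 2.53 for Pif1, with 1 sample left in an arm and assumed to vary like the others. In the interaction they were -0.56 to 0.28 for Terf1, -0.37 to 0.0891 for Pot1a, -0.84 to 1.52 for Pot1b and -0.22 to 0.52 for Ctc1. Between livers they were -0.97 to 0.71 for Pot1b, -0.21 to 0.53 for Ctc1 and -0.41 to 0.42 for Ten1. Between tumors they were -0.10 to 0.73 for Terf1, -0.28 to 0.31 for Terf2ip, -0.0921 to 0.23 for Acd and -0.80 to 1.16 for Pot1b.

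With 2 p21TertCi mice, differences of the size seen for most members could not be resolved in that genotype. Ten1 had as few as 33 reads in a liver, and Stn1 as few as 29, so counting error adds to the spread between mice at these levels. The sequencing run of each library was not modelled, and run and group cannot be told apart here. Genotype and the driver mutation of a tumor cannot be told apart either.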
